A study of Mus musculus with 22 samples.

Results

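The Hox genes are the 39 genes of the deposited table, out of 46603, whose symbol names a member of the A, B, C or D Hox cluster (11, 10, 9 and 9 genes). They were read in 22 RNA-seq libraries of intestinal tissue from male wild-type C57BL/6 mice, which entered the study at 7 weeks of age. The diets were fed for 7 weeks and differed in their fibre, 8% of the weight; fat supplied 35%, carbohydrate 45% and protein 20% of the calories in all groups. Cellulose was the fibre in Control (n = 4) and PFOS (n = 4), inulin in Inulin (n = 3) and Inulin_PFOS (n = 3), and pectin in Pectin (n = 4) and Pectin_PFOS (n = 4). The 3 groups named for PFOS, a persistent fluorinated surfactant, received 3 µg/kg of it daily in their drinking water. The group name was taken from the sample title, because another treatment field mentions PFOS for every sample. The gut segment is not given in the sources used here. Replicates are numbered as biological, but whether each came from its own mouse is not spelled out, and p-values then measure the spread between these samples.

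Hox genes encode homeodomain transcription factors that give cells a position along the head-to-tail axis of the embryo. Within each cluster, genes at the low-numbered end are switched on early and far forward, and genes at the high-numbered end late and towards the tail. Members with the same number in different clusters are paralogues. In the gut, Hox transcripts are best known from the mesenchyme and muscle, where nested combinations mark the segments, and some members are also transcribed in the epithelium. The highest-numbered groups are known for the hindgut and the urogenital tract.

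Library totals lay between 17613322 and 20261370 counts, and Hox genes took 0.00342% to 0.0235% of them. Levels of 1 gene across libraries are given as CPM (counts scaled to a fixed library size after TMM normalisation), and levels of different genes as TPM (the authors' values, scaled for gene length). Pectin_PFOS replicate 1 had the smallest scaling factor (0.749). The files' tissue label was checked against defining markers. The pan-epithelial markers summed to 9641 to 26070 CPM, and the smooth muscle markers to 1190 to 11770 CPM. The exocrine pancreas and stomach lists stayed at or below 0.465 and 0.181 CPM. Other tissues were present in amounts that varied widely between libraries. The adipocyte markers summed to 16.0 to 409.1 CPM, the mesothelium markers to 0.169 to 70.4 CPM and the B cell markers to 2.31 to 488.5 CPM.

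Hox transcripts in this tissue came from the middle of the clusters. By mean TPM over the 22 libraries, Hoxb6 (20.6), Hoxb7 (15.6) and Hoxb9 (11.4) led, followed by Hoxb8 (7.14), Hoxb5 (6.89), Hoxc6 (4.67), Hoxc8 (4.37) and Hoxb3 (4.31). Hoxb4 (2.58), Hoxb2 (2.51), Hoxa7 (1.75) and Hoxc4 (1.01) lay lower. The other 4 genes with a mean of at least 1 CPM, which are Hoxa5, Hoxc5, Hoxc9 and Hoxd8, had mean TPM of 0.824, 0.531, 0.695 and 0.758. By their ranges over libraries many neighbours in this order overlapped: Hoxb6 spanned 3.15 to 59.7 TPM, Hoxb7 3.65 to 27.4 TPM and Hoxb9 0.44 to 24.2 TPM. The B cluster supplied a median of 80.9% of all Hox TPM in a library (46.5% to 95.3%), against 13.7% for C, 4.10% for A and 1.53% for D. Summed over its genes, the B cluster ranged from 14.7 TPM (Pectin replicate 2) to 165.1 TPM (PFOS replicate 1).

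**Figure D1:**
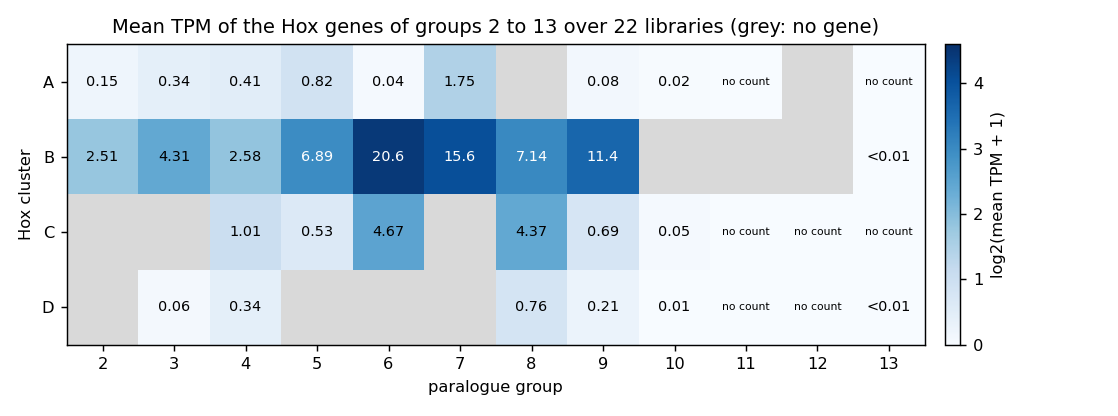
Mean TPM over the 22 libraries of the Hox genes of paralogue groups 2 to 13 (columns) in clusters A to D (rows); colour is log2(mean TPM + 1) and grey marks a position with no gene. The filled middle of the B row, from Hoxb2 to Hoxb9, holds most of the Hox transcripts, and groups 10 to 13 are empty or nearly so.

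The posterior ends of the clusters were silent or nearly so. The 12 members of groups 10 to 13, the posterior genes of hindgut and urogenital tract, had 49 counts together among 417499334 counts in the 22 libraries. Of these 12, 7 had no count, and the most in 1 library was 8 counts of Hoxc10. In all, 9 Hox genes had no count in any library: Hoxa11, Hoxa13, Hoxb1, Hoxc11, Hoxc12, Hoxc13, Hoxd1, Hoxd11 and Hoxd12. A count of 0 over all libraries allows a level of up to 0.00719 CPM (3 counts), for counting error only. The posterior genes Hoxb13 and Hoxd13 had 2 counts and 1 count.

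The expression filter kept 20 Hox genes for testing: 4 of cluster A, 8 of B, 5 of C and 3 of D. The other 19 comprised the 9 without a count and 10 with some counts. Just above the filter were Hoxd9 (0.0558 to 0.969 CPM) and Hoxd4 (0 to 0.744 CPM). Just below it was Hoxa2 (0 to 0.671 CPM). In the GENCODE M21 annotation some of the tested genes share exon bases with neighbours. Hoxb3 shares 52.9% of its exon bases and Hoxb2 27.3% with the antisense gene Hoxb3os, and Hoxd4 shares 39.1% with Gm28230 on its own strand. Hoxa7 shares 20.4% with the antisense gene Hoxaas3, Hoxa4 16.0% with the antisense gene Gm29430, and Hoxa3 smaller parts with several. The libraries were made strand-specific, per the labels, but whether counting used strand is not stated, so the values of these genes are uncertain to that extent.

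The B cluster lies on chromosome 11, with Hoxb9 at chr11:96271457-96276595, Hoxb8 at chr11:96281905-96285315, Hoxb7 at chr11:96286623-96290162 and Hoxb6 at chr11:96292476-96301569, all on the plus strand of GRCm38. The C cluster lies on chromosome 15, with Hoxc8 at chr15:102990607-102994111 and Hoxc6 at chr15:102998257-103011881, also on the plus strand. Cluster A lies on chromosome 6 and cluster D on chromosome 2. RefSeq promoters (GRCm38.p6) matched 9 of the 20 tested genes. Those of Hoxb8 and Hoxa5 are shown because these genes followed 2 different library scores in the results below. Each is the 250 bases before the start site, 5′ to 3′ on the gene's strand, at chr11:96281655-96281904 (plus) and chr6:52204588-52204837 (minus), and neither window overlaps an annotated exon of GENCODE M21. Capitals mark matches to the motifs named next.
Hoxb8: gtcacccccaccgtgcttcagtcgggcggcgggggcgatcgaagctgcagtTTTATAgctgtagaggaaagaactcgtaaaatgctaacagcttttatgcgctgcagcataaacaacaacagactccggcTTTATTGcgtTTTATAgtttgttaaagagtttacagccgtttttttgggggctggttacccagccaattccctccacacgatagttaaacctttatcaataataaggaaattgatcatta
Hoxa5: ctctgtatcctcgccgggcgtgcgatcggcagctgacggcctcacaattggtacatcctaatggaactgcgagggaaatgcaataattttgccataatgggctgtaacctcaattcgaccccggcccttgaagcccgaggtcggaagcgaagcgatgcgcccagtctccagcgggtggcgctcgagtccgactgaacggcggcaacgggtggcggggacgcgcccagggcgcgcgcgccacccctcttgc

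Both strands were searched for TATAAA (the TATA box), CAATAAA (the letters bound by CDX factors) and TGATTNAT (a joint site of HOX and PBX proteins). Hoxb8 had 3 matches, with first bases at −199 (TATAAA, reverse strand), −120 (CAATAAA, reverse strand) and −110 (TATAAA, reverse strand) from the start site. Hoxa5 had none in this window. Among 32851 promoter windows of that length, 12.4% held TATAAA, 4.20% held CAATAAA and 2.83% held TGATTNAT. Of the 9 Hox windows 2 held TATAAA, 1 held CAATAAA and 0 held TGATTNAT. A match describes letters in the window and is no evidence of binding.

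Every library carried transcripts that mark the ileum, and few or none of the colon and stomach markers named here. Fabp6, the ileal bile acid binding protein, lay between 5074 and 20810 TPM in all 22 libraries, and Slc10a2, the ileal bile acid transporter, between 28.7 and 348.2 TPM. Fgf15, the bile acid induced hormone of the ileum, ranged from 0.74 to 381.6 TPM. The colonic genes Car1 and Aqp8 stayed at or below 0.35 and 0.09 TPM. Cdx1 (44.4 to 136.4 TPM) and Cdx2 (88.6 to 267.7 TPM), which set intestinal identity, were present throughout. The gastric gene Gkn1 had no count.

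Gata4 divided the libraries unevenly. This transcription factor of the proximal small intestine lay above 5 TPM in 4 libraries, which are PFOS replicate 4 (15.4 TPM), Pectin replicate 2 (6.57 TPM) and Pectin_PFOS replicates 3 (19.9 TPM) and 4 (10.5 TPM). In the other 18 libraries it lay between 0.19 and 1.36 TPM. Lct, lactase of the proximal brush border, followed the same division, with 4.02 to 86.0 TPM in the 4 libraries and 0.05 to 1.22 TPM in the others. Fabp1 reached 58.9 to 395.3 TPM against 19.4 to 198.7 TPM and Fabp6 8628 to 20810 TPM against 5074 to 20390 TPM, so both overlapped. The limit of 5 TPM was set after these values were seen, and the 4 libraries belong to 3 treatment groups.

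Hoxb9, the highest-numbered gene of the B cluster with more than trace counts, was lowest in the libraries with the most Gata4. In Control it measured 34.4, 11.6, 15.8 and 37.6 CPM (replicates 1 to 4), and in PFOS 34.5, 21.9, 31.7 and 0.815 CPM. In Inulin it measured 26.0, 31.1 and 13.1 CPM, and in Inulin_PFOS 32.6, 22.7 and 29.5 CPM. In Pectin it measured 24.2, 4.26, 13.8 and 38.2 CPM, and in Pectin_PFOS 32.5, 33.0, 3.49 and 7.57 CPM. The 4 lowest libraries of the study were the 4 with Gata4 above 5 TPM (0.815 to 7.57 CPM), and the other 18 began at 11.6 CPM.

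Hoxb6, the most abundant Hox transcript by mean TPM, also varied between libraries. It measured 42.0, 12.7, 23.8 and 21.1 CPM in Control and 47.2, 17.1, 33.8 and 3.74 CPM in PFOS. It measured 37.2, 43.6 and 9.26 CPM in Inulin and 21.1, 27.0 and 24.3 CPM in Inulin_PFOS. It measured 21.1, 4.02, 8.50 and 35.4 CPM in Pectin and 20.0, 20.1, 3.83 and 11.5 CPM in Pectin_PFOS. PFOS replicate 4, Pectin_PFOS replicate 3 and Pectin replicate 2 were the 3 lowest, while Pectin_PFOS replicate 4 lay above Pectin replicate 3 and Inulin replicate 3, so the 2 sets met.

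Hoxb7 and Hoxb3, like Hoxb9, divided the libraries without overlap. The share of all genes that did not overlap between these 2 sets was not computed. Hoxb7 spanned 3.78 to 5.17 CPM in the 4 libraries and 8.64 to 24.0 CPM in the other 18, and Hoxb3 1.97 to 3.81 CPM against 4.91 to 25.7 CPM. Hoxb8 came close to overlap, with 1.96 to 5.32 CPM against 5.33 to 18.6 CPM. Hoxb6 (3.74 to 11.5 against 8.50 to 47.2 CPM), Hoxb5 (1.96 to 5.27 against 3.00 to 25.5 CPM) and Hoxb4 (1.58 to 2.04 against 1.67 to 11.7 CPM) overlapped. So did Hoxb2 (1.62 to 4.89 against 0.922 to 5.85 CPM), the lowest-numbered gene of the cluster with counts. Of the C cluster, Hoxc8 measured 4.06 to 7.28 CPM in the 4 libraries, inside the 1.98 to 16.4 CPM of the others, and Hoxc9 did not overlap (0.479 to 0.526 against 0.593 to 3.21 CPM).

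**Figure D2:**
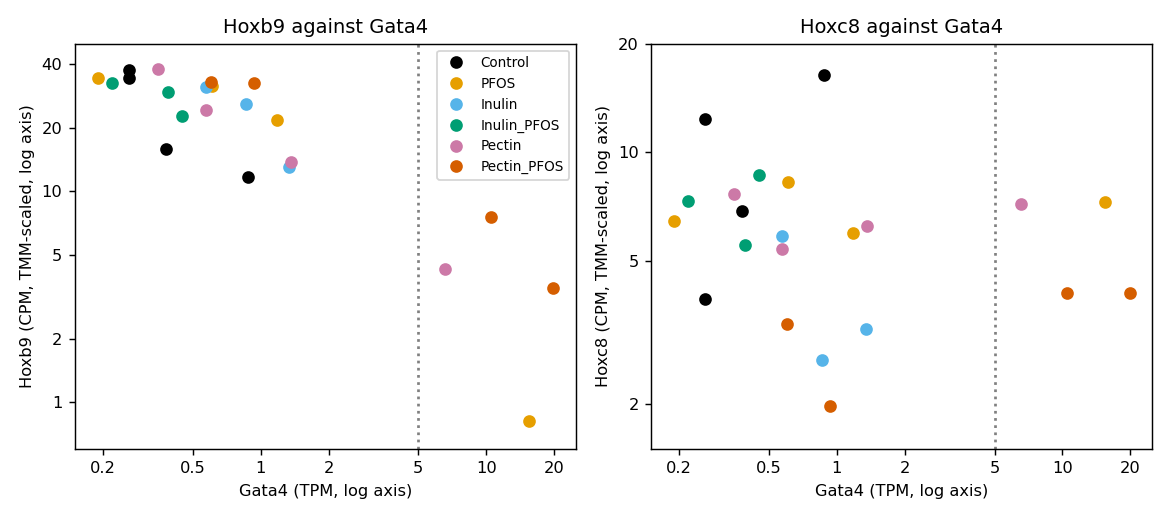
CPM of Hoxb9 (left) and Hoxc8 (right) against TPM of Gata4 in the 22 libraries, both axes logarithmic, points coloured by group, with a dotted line at 5 TPM. The 4 libraries right of the line hold the 4 lowest Hoxb9 values (0.815 to 7.57 CPM), while their Hoxc8 values (4.06 to 7.28 CPM) lie within the range of the rest.

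Since the libraries fell into 2 sets by Gata4, correlations with it were computed only over the 18 libraries with low Gata4, for the 8 tested B genes. Hoxb6 had Pearson's r = −0.709 (permutation p = 0.001, adjusted p = 0.0083) and Spearman's rho = −0.664 (permutation p = 0.0034, adjusted p = 0.027). All 8 Pearson values were negative, from −0.709 to −0.463, and 7 had an adjusted permutation p under 0.05, the exception being Hoxb7 (adjusted p = 0.052). By Spearman's rho only Hoxb6 and Hoxb9 (rho = −0.595, adjusted permutation p = 0.042) did. Without the 2 libraries farthest from the median Gata4, r was −0.484 for Hoxb6, −0.265 for Hoxb9 and 0.021 for Hoxb7, so these relations rested in part on those libraries. Hoxb2 (r = −0.546) was as negative as Hoxb9 (r = −0.539) over the 18 libraries. Values for the A, C and D genes and for all other genes are not given, so these correlations do not set the B genes apart.

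To ask the same of all genes, each gene was fitted on a position score, with a mean per group, so that the slope describes variation within groups. The score is the mean log2 CPM of 8 proximal small intestine markers minus that of 6 ileum markers, and a slope is the log2 change per 1 SD of the score. By edgeR's quasi-likelihood test with Benjamini-Hochberg adjustment over 15763 genes, 6 of the 20 tested Hox genes fell as the score rose and 0 rose, where 0.558% of all genes fell. All 6 belonged to the B cluster. DESeq2 called 7 Hox genes and limma 5, but the shares of all genes called by these tools are not given. Hoxb9 had the steepest slope (−1.19 ± 0.20 SE, adjusted p = 0.00475), followed by Hoxb6 (−0.90 ± 0.17, adjusted p = 0.0154) and Hoxb8 (−0.75 ± 0.13, adjusted p = 0.00501). Hoxb5 (−0.74 ± 0.18, adjusted p = 0.0462), Hoxb7 (−0.72 ± 0.11, adjusted p = 0.00235) and Hoxb3 (−0.64 ± 0.15, adjusted p = 0.0377) completed the set in the same edgeR fit.

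Hoxb4 had a slope of −0.52 ± 0.16 (edgeR adjusted p = 0.15) and Hoxb2 one of 0.20 ± 0.12 (adjusted p = 0.52). Among the 12 tested genes of A, C and D none was called, and their median slopes were 0.17, 0.11 and 0.001. The difference between clusters was not itself tested. The score rested on few of its markers: of the 8 proximal genes Lct (slope 2.24), Gata4 (1.43) and Fabp1 (0.81) rose with it and Slc40a1 fell (−0.57), and of the 6 ileal genes only Slc10a2 was called (−0.60).

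These position slopes rested on the libraries with high Gata4. Without the 4 libraries above 5 TPM, an alternative chosen after seeing the data, 0 Hox genes were called, and the slopes shrank to −0.01 for Hoxb9, −0.26 for Hoxb6 and −0.14 for Hoxb7 (edgeR adjusted p = 0.995, 0.824 and 0.826). Without PFOS replicate 4 alone 1 gene was called, and without PFOS replicate 1, Pectin replicate 2 or Pectin_PFOS replicate 3 alone 3 were. With Gata4 left out of the score 3 were called. With the smooth muscle score in the same model the count stayed at 6.

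A further set of fits used scores of the muscle wall and stroma. Fitted on a smooth muscle score (12 genes of the contractile apparatus, such as Myh11 and Actg2), 5 of the 20 Hox genes rose and 0 fell by edgeR's quasi-likelihood test, where 3.31% of all genes rose. They were Hoxb2 (0.62 ± 0.10 SE, adjusted p = 0.000558), Hoxc8 (0.52 ± 0.10, adjusted p = 0.00244) and Hoxc4 (0.60 ± 0.12, adjusted p = 0.00453). Hoxa5 (0.67 ± 0.15, adjusted p = 0.0134) and Hoxc6 (0.45 ± 0.11, adjusted p = 0.0257) also rose. DESeq2 called 6 and limma 6, again without the shares of all genes called by these tools. Cluster medians were 0.55 for A, −0.08 for B, 0.45 for C and 0.47 for D, against −0.02 for all genes, and 0 B genes other than Hoxb2 were called. Without Inulin_PFOS replicate 2 the count was 3.

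On an enteric neuron and glia score (15 genes such as Elavl4 and Sox10) 6 Hox genes rose and 0 fell, where 3.22% of all genes rose. They were Hoxc4 (0.66 ± 0.12, edgeR adjusted p = 0.0044), Hoxa5 (0.77 ± 0.15, adjusted p = 0.00619), Hoxb2 (0.56 ± 0.13, adjusted p = 0.021), Hoxc9 (0.68 ± 0.17, adjusted p = 0.0293), Hoxc8 (0.48 ± 0.13, adjusted p = 0.0461) and Hoxc6 (0.48 ± 0.13, adjusted p = 0.0462). The smooth muscle markers moved with this score as well, 11 of 12 being called higher on it, so the 2 tissues of the muscle wall cannot be told apart here. The count was 3 without Control replicate 1, PFOS replicate 3, Pectin replicate 3 or Pectin_PFOS replicate 1, and 2 without Inulin replicate 2 or Pectin replicate 4. Hoxc4 and Hoxa5 were called without each of these libraries.

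On a fibroblast score (12 genes such as Pdgfra and Col1a2) 1 Hox gene rose, Hoxc8 (0.65 ± 0.12, edgeR adjusted p = 0.00569), where 3.41% of all genes rose, and 1 of 20 is near that share. DESeq2 called 2 and limma 0, and their shares of all genes are not given. The edgeR count was 2 without Control replicate 3 or 4, Pectin replicate 2 or 4, or Pectin_PFOS replicate 2. Median slopes were 0.60 in A, −0.48 in B, 0.54 in C and 0.54 in D. On a pan-epithelial score (10 genes such as Epcam and Krt20) edgeR called 0 of the 20, against 6.25% of all genes. DESeq2 and limma also called 0 of the 20. Only 1 had an unadjusted edgeR p under 0.05 (Hoxd9, −0.60 ± 0.28, adjusted p = 0.21). The median Hox slope on this score was −0.16, and 0.07 when libraries were scaled by their totals alone, so its sign depends on the scaling. In these bulk samples fewer cells of a type and less RNA per cell cannot be told apart.

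**Figure D3:**
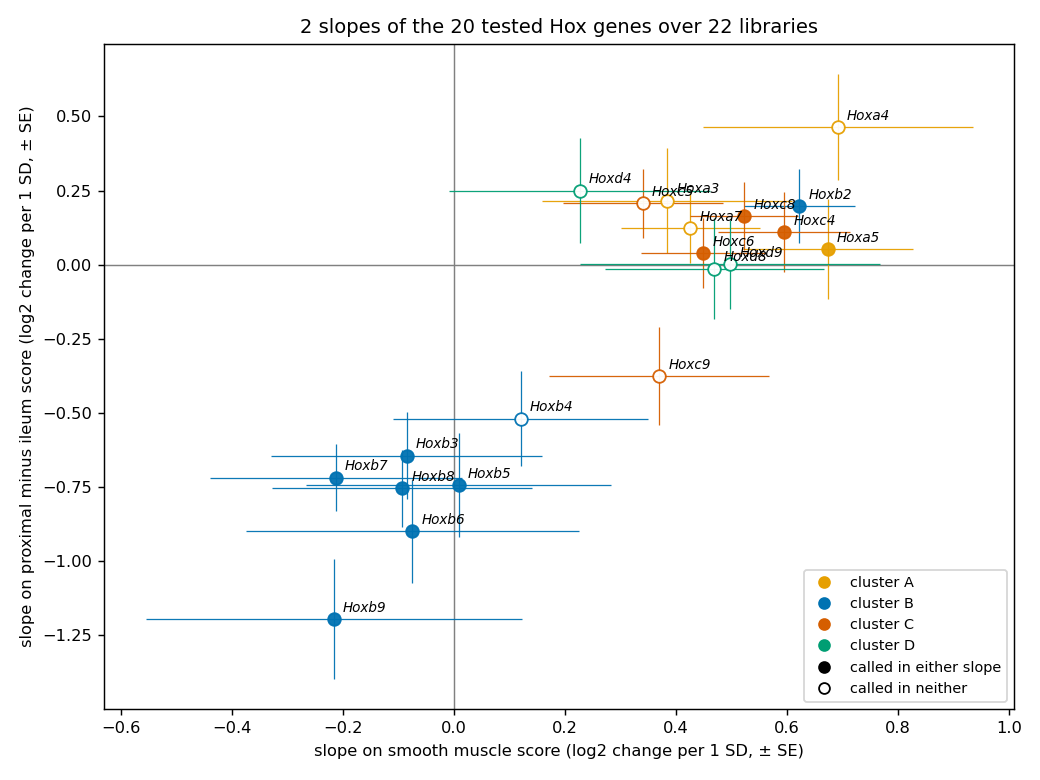
Slope of each of the 20 tested Hox genes on the smooth muscle score (horizontal) and on the proximal minus ileum score (vertical), in log2 change per 1 SD with SE bars, coloured by cluster and filled where called in either. Hoxb3 to Hoxb9 lie low near 0 on the horizontal axis, from −0.52 to −1.19 on the vertical, and Hoxb2 lies with the A, C and D genes.

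Pooled correlations, which also take in differences between groups, were computed for the 60 pairs of the 20 genes with 3 scores. They passed the threshold more often than the slopes on the fibroblast and pan-epithelial scores, which called 1 and 0. Their adjustment was over the 60 pairs, while that of the slopes was over all genes tested. No other genes were correlated with the scores, so the counts below have no share of all genes beside them. With the fibroblast score 11 of the 12 A, C and D genes were positively correlated at an adjusted permutation p under 0.05, the exception being Hoxd4 (r = 0.44, adjusted permutation p = 0.076), and of the 8 B genes only Hoxb2 was. Hoxc8 had the highest value (Pearson's r = 0.926, permutation p = 1e-05, the smallest the 100000 resamples can give, adjusted p = 0.00015; Spearman's rho = 0.826, permutation p = 1e-05, adjusted p = 0.0002). Without the 2 libraries farthest from the median score its r was 0.886. The A, C and D values spanned 0.44 to 0.926 pooled and 0.146 to 0.828 after group means were removed.

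With the smooth muscle score 10 of the 12 and, of the B genes, again only Hoxb2 were positive at an adjusted permutation p under 0.05. Hoxb2 had r = 0.901 (adjusted permutation p = 0.00015) and rho = 0.884 (adjusted permutation p = 0.0002), with 0.851 after leaving out the 2 farthest libraries. The exceptions were Hoxa3 (r = 0.449, adjusted permutation p = 0.059) and Hoxd4 (r = 0.288, adjusted permutation p = 0.28). For Hoxd4 the r with the fibroblast score was −0.139 without the 2 farthest libraries. With the pan-epithelial score r was negative for all 12, and 11 of them and Hoxb2 had an adjusted permutation p under 0.05, down to r = −0.682 for Hoxc6 (adjusted permutation p = 0.0021; rho = −0.677, adjusted permutation p = 0.0034). After group means were removed the 12 values lay between −0.48 and −0.186 (median −0.305 against −0.569 pooled), with Hoxc6 at −0.209. Libraries share depth and composition across both variables, and a higher share of one tissue lowers the share of the other.

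The Hox genes also fell into 2 sets by their correlation with each other. Among the 28 pairs of tested B genes 21 had an adjusted permutation p under 0.05 (190 pairs in all), and the 7 without were those with Hoxb2, singled out after its values were seen. Pearson's r among Hoxb3 to Hoxb9 ran from 0.624 to 0.947 and Spearman's rho from 0.504 to 0.942. Within groups r ran from 0.716 to 0.959, and over the 18 libraries with low Gata4 from 0.285 to 0.947 (median 0.703). Hoxb2 had r of −0.013 to 0.364 with them and 0.402 to 0.842 with the A, C and D genes. Among the 66 pairs of A, C and D genes 55 had an adjusted permutation p under 0.05 (median r = 0.673), against 18 of the 96 pairs between B and the others (median r = 0.096). Hoxb2 took part in 11 of those 18, and 7 of the 84 pairs remained without it. Pairs of other genes were not correlated, so how often any genes correlate in these libraries was not tested.

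**Figure D4:**
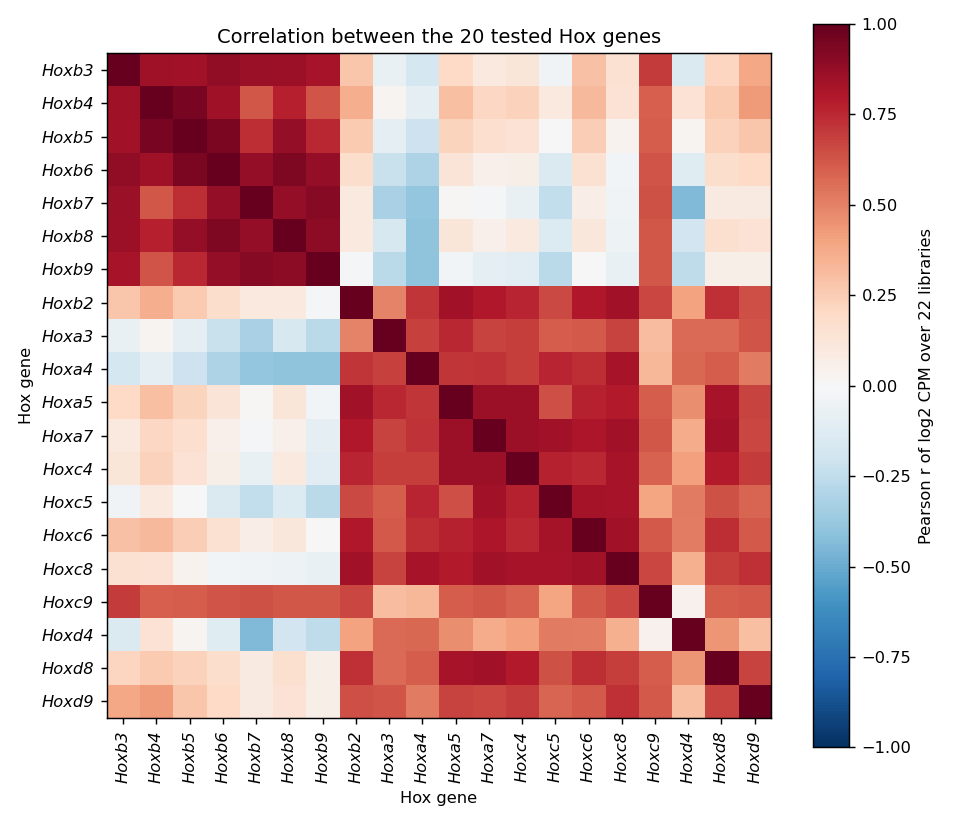
Pearson's r of log2 CPM between the 20 tested Hox genes over 22 libraries, with Hoxb3 to Hoxb9 first and Hoxb2 placed beside the A, C and D genes. Hoxb3 to Hoxb9 form a block of 0.624 to 0.947, Hoxb2 shares the second block, and Hoxc9 is red with most genes of both.

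Of the treatment comparisons, Pectin_PFOS against PFOS asked whether the fibre changed Hox levels in exposed animals. Here all 5 tested C genes were lower and 4 of them were called. Hoxc6 measured 5.08, 4.96, 6.75 and 6.04 CPM in PFOS (5.71 ± 0.85 SD, n = 4) and 0.593, 2.63, 1.92 and 2.61 CPM in Pectin_PFOS (1.94 ± 0.96 SD, n = 4), without overlap. Hoxc8 measured 6.46, 5.97, 8.26 and 7.28 CPM in PFOS and 1.98, 3.34, 4.06 and 4.07 CPM in Pectin_PFOS. Hoxc4 measured 2.35, 2.07, 2.51 and 2.73 CPM against 0.461, 1.05, 0.958 and 1.46 CPM. In all 3 genes every Pectin_PFOS library lay below every PFOS library, and replicate 1 was the lowest of its group.

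By edgeR's quasi-likelihood test 5 of the 20 tested Hox genes fell and 0 rose, where 8.33% of all genes fell and 16% changed in either direction. Hoxc6 fell by 1.55 ± 0.35 SE on the log2 scale (adjusted p = 0.00779), Hoxc5 by 1.20 ± 0.37 (adjusted p = 0.0328), Hoxc4 by 1.28 ± 0.40 (adjusted p = 0.0349) and Hoxc8 by 1.05 ± 0.35 (adjusted p = 0.0448). Hoxd9 fell by 2.09 ± 0.66 (edgeR adjusted p = 0.0372), a value that rests on 1, 2, 3 and 3 counts in Pectin_PFOS against 21, 6, 11 and 11 in PFOS. Of the 20 genes 19 were negative, with a median of −1.05 against −0.03 for all genes. Scaled by library totals alone, the median of all genes moved to −0.41 and that of the Hox genes to −1.40, and 10 Hox genes were called.

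DESeq2 called 9 Hox genes and limma 11. The shares of all genes called by these tools, or under library totals, are not given, so these counts are not set against them. Hoxc9, the C gene that was not called, had −1.01 ± 0.50 (edgeR adjusted p = 0.17), and its groups overlapped. Cluster medians were −1.03 in A, −0.83 in B, −1.20 in C and −1.33 in D, so the fall was not particular to C. In A and B 0 genes were called by edgeR. The groups of Hoxa5, Hoxa7, Hoxb2 and Hoxd8 did not overlap either, though none of these was called. The share of all genes without overlap was not computed. Hoxb4 (−1.58 ± 0.54, edgeR adjusted p = 0.051) and Hoxb5 (−1.48 ± 0.64, adjusted p = 0.12) had the largest B values, and Hoxb7 was at 0.02 ± 0.54. Hoxc6 was called without each of the 22 libraries in turn. The count of 5 was less stable: it was 1 without PFOS replicate 3 or Pectin_PFOS replicate 1 or 2, 2 without PFOS replicate 1 or 2, and 3 without PFOS replicate 4 or Pectin_PFOS replicate 3 or 4.

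Stromal markers were lower in the same libraries. Between the same groups 7 of 12 fibroblast markers fell and 0 rose (Pdgfra by 1.85 ± 0.35 on the log2 scale), as did 9 of 13 tested transcription factors of gut mesenchyme and muscle (Foxf1 by 1.60 ± 0.31). The fibroblast markers summed to 535.4 to 751.5 CPM in PFOS and 169 to 358.5 CPM in Pectin_PFOS. Of the smooth muscle markers 0 of 12 were called, with all 12 negative (median −0.79) and sums of 2876 to 5092 against 1190 to 3031 CPM. Of the pan-epithelial markers 3 of 10 rose, where 16% of all genes changed in either direction. The share of all genes that rose is not given. The pan-epithelial sums were 12490 to 16270 against 18920 to 26070 CPM, and how often other sums separated these groups was not computed. With the fibroblast and smooth muscle scores in the model 0 Hox genes were called, Hoxc6 at −0.83 (edgeR adjusted p = 0.294) and Hoxc8 at −0.08 (adjusted p = 0.931), and 163 of all genes were called against 2526 without them. The part of the stromal markers in the Hox values was not tested further.

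Genes of the Hox cofactors moved in this comparison too. These TALE homeodomain proteins bind DNA together with HOX proteins. Of the 9 members 5 fell and 0 rose by edgeR's quasi-likelihood test, of which Meis1 (−1.62 ± 0.36, adjusted p = 0.00709), Meis2 (−1.47 ± 0.33, adjusted p = 0.00713), Meis3 and Pknox2 had the smallest p. The median of the list was −0.71, and 8.33% of all genes fell in this comparison. On each of the fibroblast, smooth muscle, and neuron and glia scores Meis1 and Meis2 alone of the 9 were called, both rising. The shares of all genes that rose on these scores were 3.41%, 3.31% and 3.22%.

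Pectin_PFOS against Pectin asked for the effect of PFOS on the pectin diet, and shares the Pectin_PFOS libraries with the comparison above. In Pectin, Hoxc6 measured 5.44, 3.44, 4.06 and 5.40 CPM, above every Pectin_PFOS library. By edgeR's quasi-likelihood test Hoxc6 alone was called, falling by 1.23 ± 0.35 SE (adjusted p = 0.0203), where 9.43% of all genes fell and 20.8% changed. The call was lost without Pectin replicate 1 (adjusted p = 0.0578) or Pectin_PFOS replicate 1 (adjusted p = 0.0552), and with the 2 stromal scores in the model (−0.51, adjusted p = 0.616). The count was 2 without Control replicate 1, 2 or 4 or Pectin_PFOS replicate 3, and 3 without Inulin replicate 2. Without the 4 libraries with Gata4 above 5 TPM it was 0. Hoxc8 had −0.97 ± 0.35 (edgeR adjusted p = 0.053), and 19 of the 20 genes were negative (median −0.78). Here 6 of 12 fibroblast markers fell. Of the 9 Hox cofactors 2 fell, Meis1 (−1.02 ± 0.36, edgeR adjusted p = 0.0479) and Meis2 (−0.92 ± 0.32, adjusted p = 0.0484). Pbx4 rose (1.51 ± 0.52, edgeR adjusted p = 0.0452).

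**Figure D5:**
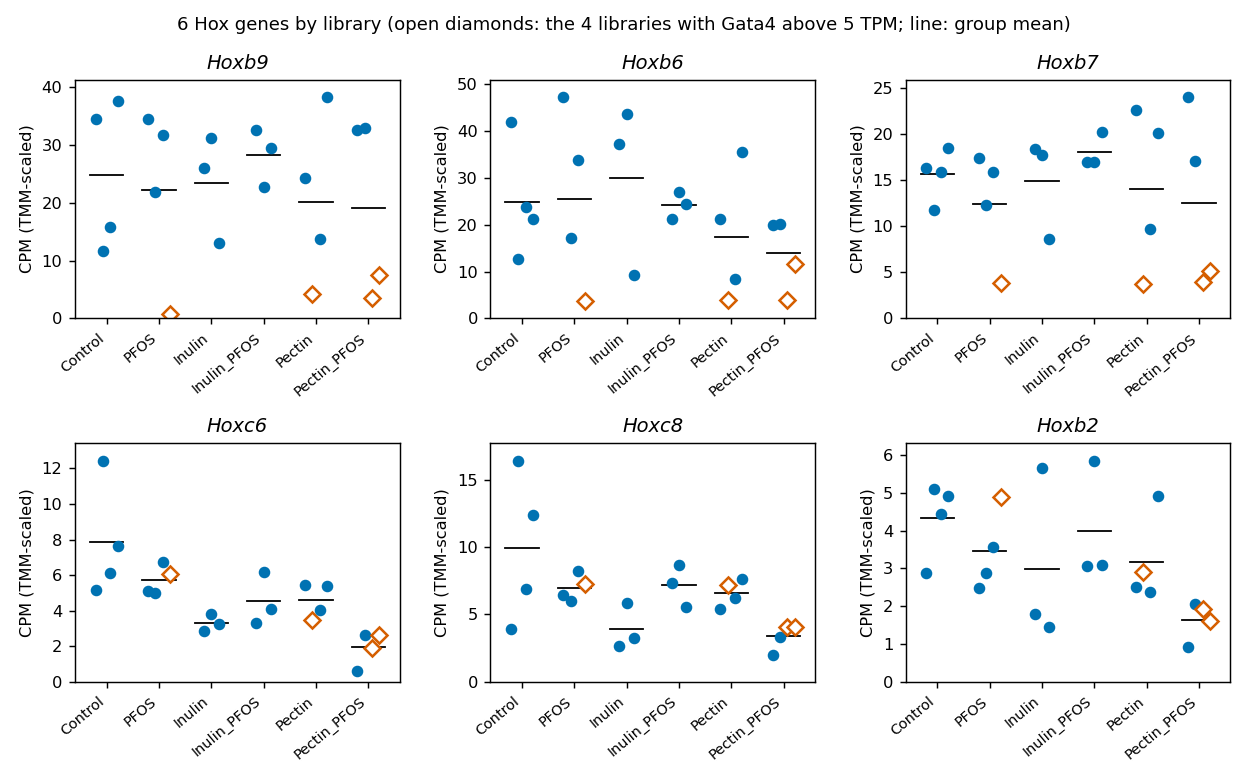
CPM (TMM-scaled) of Hoxb9, Hoxb6, Hoxb7, Hoxc6, Hoxc8 and Hoxb2 in each library by group, with the group mean as a line and the 4 libraries with Gata4 above 5 TPM as open diamonds. In each group that has diamonds they are its lowest points for Hoxb9 and Hoxb7, and Pectin_PFOS holds the lowest group mean for Hoxc6 and Hoxc8.

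In the other 8 comparisons edgeR's quasi-likelihood test called 0 Hox genes. PFOS against Control, which asked for the effect of PFOS on cellulose, had 0 Hox genes at an unadjusted p under 0.05. DESeq2 and limma called 0. At an adjusted p edgeR called 0% of all genes, and the share at an unadjusted p is not given. The smallest p was that of Hoxa4 (−0.89 ± 0.58, edgeR adjusted p = 0.822). In all 20 genes the groups overlapped, and the share of all genes with overlap was not computed. Averaged over 3 diets the effect of PFOS had again 0 at an unadjusted p under 0.05 and 0 by the other tools. Here edgeR called 0.159% of all genes at an adjusted p, and Hoxc6 was at −0.41 ± 0.21 (edgeR adjusted p = 0.364). Medians were −0.16 and −0.20.

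Inulin against Control had 9 Hox genes at an unadjusted p under 0.05 by edgeR. At an adjusted p edgeR called 0% of all genes. DESeq2 called 3 Hox genes and limma 0. The shares of all genes at an unadjusted p under 0.05, or called by DESeq2, are not given here. The 9 and the 3 are therefore not set against all genes. Of the 9, all were lower in Inulin and none belonged to B. Hoxc8 measured 3.91, 16.4, 6.89 and 12.4 CPM in Control and 2.65, 5.84 and 3.23 CPM in Inulin, ranges that overlap (−1.34 ± 0.38, edgeR adjusted p = 0.0881). Cluster medians were −1.54 in A, −0.08 in B, −1.25 in C and −0.98 in D. The smooth muscle and fibroblast lists had medians of −1.15 and −1.30 in the same comparison, all 12 of each negative. Without Control replicate 1 the count was 2, and without Pectin_PFOS replicate 1 it was 1.

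Pectin against Control (1.99% of all genes called) had 1 Hox gene at an unadjusted p under 0.05, Hoxc6 (−0.77 ± 0.34, edgeR adjusted p = 0.222), and 0 by DESeq2 or limma. Inulin_PFOS against Inulin (0.159%) had 2, with Hoxa7 first (1.01 ± 0.42, edgeR adjusted p = 0.208), and 0 by DESeq2 or limma. Inulin_PFOS against PFOS (2.64%) had 1, Hoxa3 (−1.29 ± 0.61, edgeR adjusted p = 0.233), 0 by DESeq2 and 2 by limma. The test of whether the PFOS effect differed on inulin (0% of all genes) had 3 at an unadjusted p under 0.05, with Hoxc8 first (1.37 ± 0.53, edgeR adjusted p = 0.166). The same test for pectin (0%) had 2, with Hoxd9 first (−2.12 ± 0.89, edgeR adjusted p = 0.356). Neither had a call by DESeq2 or limma. The percentages of all genes in this paragraph are edgeR calls at an adjusted p, not shares at an unadjusted p under 0.05. PFOS, Inulin and Control libraries enter several of these comparisons, so the results share samples. These misses do not show that Hox levels were equal.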

How the data were processed

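The authors deposited one annotated table with estimated counts (expected counts, not always whole) and TPM per gene for 22 libraries, per the file headers. Libraries were strand-specific and sequenced on a DNBSEQ instrument, per the labels' protocols. HISAT and Bowtie2 (no versions) and the build GRCm39 are named, per the submitters' processing notes, while the coordinates in the table match GENCODE M21 on GRCm38 for all 39 Hox genes; GRCm38 is used here. Libraries were placed in groups by title. Estimated counts were rounded to whole numbers. Genes were filtered with filterByExpr (15763 kept), scaled by TMM and fitted with edgeR 4.0.16 (robust quasi-likelihood, a mean per group over all 22 libraries), with Benjamini-Hochberg adjustment over all genes tested and a call at 0.05. Slopes add a marker score to the group means. Correlations used 100000 permutations. limma 3.58.1 on log2(TPM + 1) and log2(TPM + 0.1), DESeq2 1.42.0, library totals as scaling, no expression filter, a replicate block, other covariates and leaving out each library were alternatives.

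The members, marker lists and tests were chosen with earlier results of these data known. Named with values were Hox genes with a mean of at least 1 CPM, those beside the filter, those called, the one with the smallest p in each comparison, up to 4 called genes of another list by p, and segment markers. Library totals of 17613322 to 20261370 counts set the precision: 1 library with 0 counts allows 3 counts, and such limits cover counting error only. On simulated counts for Pectin_PFOS against PFOS (15436 genes) the fit recovered 37% of genes raised 2-fold and 91% of those raised 4-fold. The raised genes all had a mean above 1 CPM, so falls and genes under 1 CPM were not simulated. Values of some genes are not reported here.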

Additional observations from a re-analysis of the deposited data

Results flagged for a closer look

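In Pectin, replicate 4 stood above the other 3 libraries in 4 Hox genes, none of them of the B cluster. Hoxa5 measured 2.74 CPM there against 0.833 to 1.11 CPM in the others. Hoxa7 measured 4.51 CPM against 1.72 to 2.10 CPM. Hoxc4 measured 2.35 CPM against 0.888 to 1.06 CPM, and Hoxd8 3.14 CPM against 1.10 to 1.33 CPM. In each case the gap to the nearest library exceeded Dixon's 95% critical value for 4 samples. Chance flags about 1 in 20 groups, and 64 sets were examined.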

How the results depend on the processing

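Of 33 single-gene results with 1066 alternative values, 899 kept direction and side of the threshold, 162 lost the call, 5 gained it and 0 reversed. The cause of the changes below was not tested, and the shares of all genes called in each setting are not given. In counts of Hox genes called, Pectin_PFOS against PFOS (5) gave 10 with library totals, 9 with DESeq2, 1 without the expression filter, 11 with limma at either pseudocount, 8 with the replicate block and 0 with the stromal scores. Pectin_PFOS against Pectin (1) gave 2 with totals, 2 with DESeq2, 3 with the replicate block, 0 with the stromal scores and 0 without the 4 libraries with high Gata4. Inulin against Control (0) gave 3 with DESeq2, and Inulin_PFOS against PFOS (0) gave 2 with limma at either pseudocount. The fibroblast slope (1) gave 5 with totals, 2 with DESeq2, 0 with limma, 0 with the replicate block and 12 without group means. The smooth muscle slope (5) gave 0 with the replicate block and 10 without group means, the neuron and glia slope (6) 0 and 12, and the pan-epithelial slope (0) 8 without group means. The position slope (6) gave 3 with the replicate block, 3 with Gata4 left out of the score and 0 without the 4 libraries. Leaving out 1 library gave 1 to 7 calls in Pectin_PFOS against PFOS, 0 to 3 in Pectin_PFOS against Pectin and 0 to 2 in Inulin against Control. It gave 1 to 6 on the position score, 3 to 6 on smooth muscle, 2 to 6 on neuron and glia, 1 to 2 on fibroblast, 0 to 1 on the pan-epithelial score (1 without Control replicate 2), and 24 to 37 correlations of the 60 (35 with all libraries). The replicate numbers did not pair the libraries: the mean correlation of deviations was 0.034 over 51 same-numbered pairs from different groups and −0.013 over 150 others. Genes under 1 CPM, such as Hoxd9, are limited by depth.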

Other observations

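Of 17 chromatin regulators 1 fell in Pectin_PFOS against PFOS, Cbx7, a Polycomb subunit (−1.13 ± 0.23 SE, adjusted p = 0.0046 by edgeR's quasi-likelihood test), where 8.33% of all genes fell. Against Pectin, 4 rose (Kdm6b, an H3K27 demethylase, by 1.21; Cbx2 by 1.03; Ezh1 by 0.76; Men1 by 0.65) and 1 fell (Bmi1, −0.83), where 20.8% of all genes changed. Of the 9 signal regulators Fgfr1, a fibroblast growth factor receptor, was lower in both (−1.57 ± 0.37 and −1.16), and Cdx2 (0.54) and Rara (0.89) were higher against Pectin. These counts, 1 of 9 and 3 of 9, are too small to set the list apart from the shares of all genes. None of the 17 chromatin regulators was called on any of the 5 library scores. In Pectin against Control 2 of the 17 fell and 0 rose, where 1.99% of all genes changed. They were Cbx7 (−1.08 ± 0.23, edgeR adjusted p = 0.0267) and Kdm6b (−0.94 ± 0.20, adjusted p = 0.0273). In Inulin_PFOS against PFOS, where 2.64% of all genes changed, Cbx7 alone was called (−1.09 ± 0.25, edgeR adjusted p = 0.0262).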
